A study of Mus musculus with 9 samples.

Results

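Small nucleolar RNAs (snoRNAs) were measured as 56 of the 18820 genes on an Affymetrix mouse array. They were taken by symbol, as genes named Snora or Snord followed by a number, from probe sets that name 1 gene, with the probe set of highest mean over all 9 arrays standing for each gene. The members were thus chosen by symbol and, among probe sets of one gene, selected on the mean signal over all arrays. The symbol rule itself was set with earlier results of these data known. The H/ACA class (Snora) held 26 genes and the C/D class (Snord) held 30. A total of 76 probe sets named a snoRNA, of which 63 named 1 gene and 13 named several genes, such as a snoRNA together with its host.

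RNA came from hippocampi of C57BL/6 mice, 12 to 14 weeks of age, with 3 arrays in each of 3 groups. In the Maresin 1 plus surgery group, mice received Maresin 1, a macrophage lipid derived from docosahexaenoic acid, and then underwent a tibia fracture. The surgery group had the fracture without Maresin 1, and the control group is labelled only as control mice. Tissue was taken 72 h after surgery, and the 3 groups analysed hold no mice given Maresin 1 without surgery. By the labels the 3 arrays of each group are biological replicates, and the labels give neither a dose of Maresin 1 nor a vehicle or sham operation for the controls.

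snoRNAs are short nuclear RNAs that pair with ribosomal RNA and direct its chemical modification. C/D snoRNAs work with the methyltransferase fibrillarin (Fbl) and with Nop56, Nop58 and Snu13 to methylate ribose, and H/ACA snoRNAs work with the pseudouridine synthase dyskerin (Dkc1) and with Gar1, Nhp2 and Nop10 to turn uridine into pseudouridine. A few members of each class take part in cutting the ribosomal precursor instead. In mammals most snoRNAs lie in introns of host genes, many of them ribosomal protein genes or noncoding RNA genes, and are released from the intron after splicing. A probe set directed at a snoRNA does not separate the mature snoRNA from the intron that still contains it.

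In the RefSeq gene table of build GRCm38.p6, 55 of the 56 members lay inside another gene, Snord118 being the exception. These 55 members fell in 44 host genes, 34 protein coding hosts with 41 members and 10 lncRNA hosts with 14 members. The strand of snoRNA and host was not compared. Sequences of the snoRNAs were not used here, so the starts of host genes are shown instead, because host transcripts carry the members whose values are set out below. Messenger RNAs of ribosomal proteins and many snoRNA hosts are known to begin with a C followed by a run of pyrimidines. The RefSeq windows cover 40 bases before and 20 bases from the annotated start, and the capitals mark each match to CTTTC on the strand of the gene. Rpl13a (chr7:45128726-45128785, minus strand) holds Snord33 and Snord35a, Snhg12 (chr4:132308638-132308697, plus strand) holds Snora16a, Snora44 and Snora61, and 2410006H16Rik (chr11:62602837-62602896, plus strand) holds Snord49a and Snord49b. Rack1 (chr11:48800320-48800379, plus strand) holds Snord95 and Snord96a, and Rplp2 (chr7:141447611-141447670, plus strand) holds Snora52. Rps3a1 (chr3:86142649-86142708, minus strand) holds Snord73a and Snord73b, Ncl (chr1:86359436-86359495, minus strand) holds Snora75 and Snord82, and Rpl10 (chrX:74270776-74270835, plus strand) holds Snora70.
Rpl13a: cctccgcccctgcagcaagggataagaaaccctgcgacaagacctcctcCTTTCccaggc
Snhg12: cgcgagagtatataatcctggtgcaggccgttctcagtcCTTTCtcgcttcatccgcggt
2410006H16Rik: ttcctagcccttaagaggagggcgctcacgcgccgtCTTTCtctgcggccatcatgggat
Rack1: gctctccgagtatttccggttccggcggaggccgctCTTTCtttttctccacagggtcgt
Rplp2: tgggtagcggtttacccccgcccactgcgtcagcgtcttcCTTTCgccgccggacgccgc
Rps3a1: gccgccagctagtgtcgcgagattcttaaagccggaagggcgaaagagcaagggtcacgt
Ncl: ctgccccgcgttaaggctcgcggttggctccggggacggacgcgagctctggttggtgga
Rpl10: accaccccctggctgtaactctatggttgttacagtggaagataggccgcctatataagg

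The tables held windows for 34 of the 44 hosts, with 36 windows in all. CTTTC stood on the gene's strand in 11 of these 36 windows (30.6%), against 2663 of 32851 windows of the same length over all genes (8.11%). On the opposite strand it stood in 2.78% of host windows and in 7.21% of all windows. No other motif was searched, and a match was counted anywhere in the window. First matches lay from position -35 in Gm36220 to position 11 in Rpl27a, with position 1, the annotated start, in Gas5 and Rplp2. The share is therefore not one of transcripts that begin with the motif. A match describes the letters of the window and says nothing about what binds there.

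Levels are given as log2 of the quantile-normalised signal plus 16, on which 1 unit is a 2-fold change of that sum. The 95th percentile of 990 olfactory receptor genes, nearly silent in brain, put the background at 5.86, and 71.0% of all genes had a mean above it. Above that level were 19 of 26 Snora genes and 19 of 30 Snord genes, and no gene of the imprinted Snord113 to Snord116 clusters was among the 56. Mean levels ran from 4.89 to 11.08 in the Snora class and from 4.88 to 10.20 in the Snord class, but probe sets bind with different strength, so these levels give no order of abundance. Markers of hippocampal neurons, with levels of 9.87 for Prox1 to 12.64 for Snap25, were well above background in the mean of the arrays. Of these 6 markers, 2 were higher (a difference of 0.24 for Prox1 and 0.04 for Snap25) and 2 lower (-0.10 for Rbfox3 and -0.08 for Slc17a7) in Maresin 1 plus surgery than in surgery without overlap. The mean deviation of 4 endothelial markers was -0.11 to 0.32 in Maresin 1 plus surgery, 0.071 to 0.16 in surgery and -0.31 to -0.24 in control, led by Flt1 with a difference of 0.49 from control in each operated group. None of these markers was called, and their part in the snoRNA values was not tested. Median deposited signals ranged from 54.1 to 100.1 between arrays. Choroid plexus markers set 2 control arrays apart, with a mean deviation of 2.73 in replicate 2 and 3.12 in replicate 3 of that group, against -0.99 to -0.62 on the other 7 arrays. Class medians against control, and Snord35b and Snora44 in Maresin 1 plus surgery, are therefore also given without these 2 arrays. For the other genes compared with control the values rest on all 3 control arrays, and the part of choroid plexus in them was not tested.

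Stability over all 9 arrays differed between members. Snora52, which in human guides a site in the large subunit rRNA, stood at 11.10, 11.04 and 11.19 in Maresin 1 plus surgery, at 11.09, 11.06 and 11.09 in surgery and at 10.87, 11.13 and 11.20 in control. Its SD over the arrays was 0.0975, close to that of Snora31 (0.0958) and Snora5c (0.124). Among C/D genes above background, Snord55 (SD 0.0712), Snord8 (0.138) and Snord42b (0.155) varied least. At the other end stood Snord82 (SD 0.695), Snord33 (0.547) and Snord73b (0.431), and in the H/ACA class Snora20 (0.373), Snora21 (0.356) and Snora3 (0.307). The median SD was 0.229 over the Snord class and 0.174 over the Snora class.

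Maresin 1 plus surgery was first set against surgery, the comparison that holds the operation fixed. No snoRNA gene passed the limma test at an adjusted p under 0.05, where 0% of all genes did. At an unadjusted p under 0.05, 10 Snord genes and 1 Snora gene were lower and none was higher, beside 5.66% of all genes, 3.7% lower and 1.96% higher. The C/D class had a median log2 difference of -0.21, with 22 of 30 genes lower, and the H/ACA class one of -0.086, with 17 of 26 lower, while the median of all genes was -0.019 with 58.3% lower. Over the 19 genes of each class above background, the median was -0.27 for Snord with 13 lower and -0.16 for Snora with 15 lower, so the share lower was then greater in the H/ACA class. The groups' arrays did not overlap for 5 Snord genes, 2 of them lower, and for 2 Snora genes, both lower, beside 13% of all genes, 8.2% lower and 4.79% higher. Bulk RNA cannot tell fewer cells of a type from less RNA per cell.

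A class score for each array, the mean over the members of the deviation from the mean of the 9 arrays, shows how far this rested on single arrays. The Snord score was -0.18, 0.096 and -0.31 in the 3 Maresin 1 plus surgery arrays and 0.10, 0.16 and -0.088 in the 3 surgery arrays. Maresin 1 plus surgery thus held the lowest arrays, 1 and 3, but its replicate 2 lay within the range of surgery. The Snora score was 4e-04, -0.057 and -0.090 with Maresin 1, within the range of the surgery arrays, which had 0.079, 0.15 and -0.14. Without Maresin 1 plus surgery replicate 3 the Snord median came to -0.080, and without replicate 2 to -0.29. The Snora median came to -0.15 without surgery replicate 3 and to -0.022 without surgery replicate 2.

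**Figure D1:**
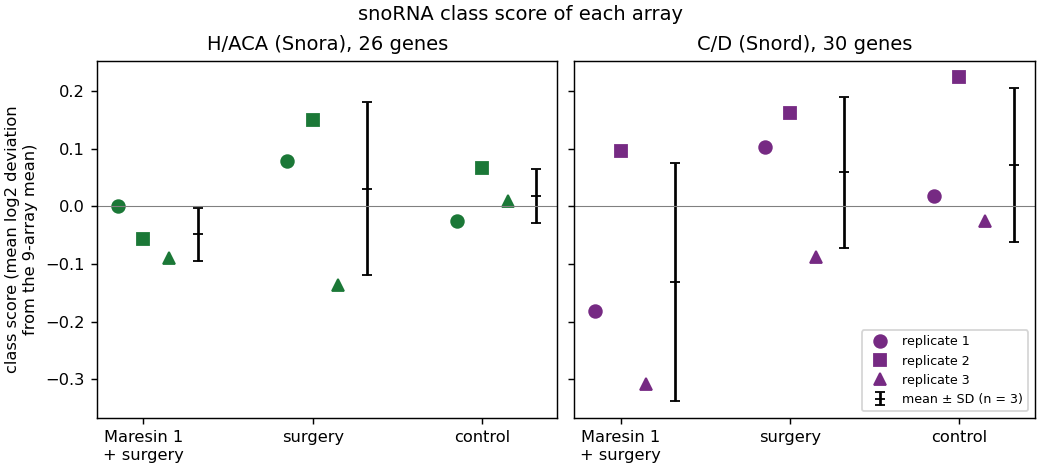
Class score of each array on the y axis (mean log2 deviation of the class members from their 9-array means), for the H/ACA class on the left and the C/D class on the right, by group; marker shapes give the replicate and bars the mean ± SD (n = 3). The C/D scores of Maresin 1 plus surgery run from -0.31 to 0.096 and overlap those of surgery and control.

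Within an array, the difference between the classes varied most in the Maresin 1 plus surgery group. The Snora score minus the Snord score was 0.18, -0.15 and 0.22 in Maresin 1 plus surgery, -0.025, -0.012 and -0.049 in surgery, and -0.042, -0.16 and 0.036 in control. The group means were 0.083 ± 0.20, -0.028 ± 0.019 and -0.054 ± 0.097 (SD, n = 3 each) in that order. The means differed by 0.11 between Maresin 1 plus surgery and surgery, less than the spread of 0.20 among the Maresin 1 arrays, and that value ran from 0.043 without Maresin 1 plus surgery replicate 3 to 0.23 without its replicate 2.

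Within groups, many members of a class put the same array highest or lowest. In Maresin 1 plus surgery, replicate 2 was the highest of the 3 arrays for 22 of 30 Snord genes (73.3%) and for 6 of 26 Snora genes (23.1%), against 31.5% of all genes. Replicate 3 of that group was the lowest for 20 Snord genes (66.7%) and 14 Snora genes (53.8%), against 37.3% of all genes. In surgery, replicate 3 was the lowest for 21 Snord and 18 Snora genes, against 34.3% of all genes. In control, replicate 2 was the highest for 19 Snord genes (63.3%), against 26.7% of all genes. Replicate 2 of surgery was the highest for 15 Snora genes (57.7%) and 14 Snord genes (46.7%), against 26.7% of all genes. Genes of both classes thus shared array-to-array differences inside groups that received the same treatment, H/ACA genes most clearly in surgery. Over 306 microRNA genes, also short RNAs, the mean deviation was -0.015, -0.033 and 0.068 in Maresin 1 plus surgery, -0.035, -0.023 and -0.036 in surgery and 0.059, 0.068 and -0.054 in control. By score, the microRNA genes had the same highest and lowest array as all C/D genes in surgery and in control, replicates 2 and 3. The microRNA scores of the surgery arrays lay so close together that their order is not settled. Over C/D genes above background the lowest control array was replicate 1, with -0.0195 against 0.0148 in replicate 3. In Maresin 1 plus surgery the highest microRNA array was replicate 3, the lowest for the C/D genes. The part of RNA recovery in these differences was not tested.

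**Figure D2:**
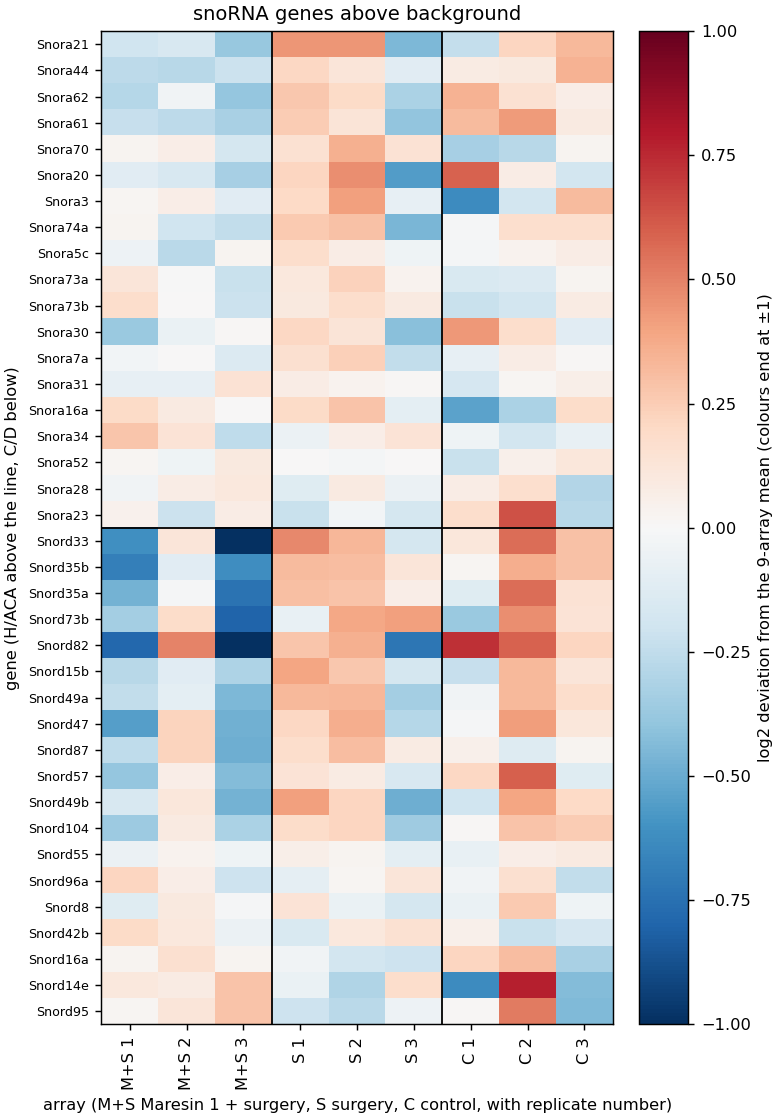
Log2 deviation from the 9-array mean (colour, ending at ±1) for the 19 Snora and 19 Snord genes above background in rows, sorted within class by the difference between Maresin 1 plus surgery and surgery, with the 9 arrays in columns. In the upper rows of the C/D block, Maresin 1 plus surgery arrays 1 and 3 are blue and array 2 is near the mean.

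Among C/D guides the largest differences from surgery were those of Snord33, Snord35b and Snord35a, of which Snord35b and Snord35a did not overlap. Snord35b, which in human guides a site in the large subunit rRNA, stood at 6.58, 7.16 and 6.65 in Maresin 1 plus surgery, at 7.58, 7.58 and 7.39 in surgery and at 7.29, 7.63 and 7.56 in control. All 3 Maresin 1 arrays lay below all 6 others. The log2 difference from surgery was -0.72 (SE 0.14, adjusted p = 0.617), with surgery 1.65-fold above, and the difference from control was -0.70 (SE 0.14, adjusted p = 0.0892).

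Snord35a, its paralogue in Rpl13a, gave 6.67, 7.13 and 6.41 in Maresin 1 plus surgery, 7.45, 7.43 and 7.21 in surgery and 7.03, 7.71 and 7.29 in control. The Maresin 1 arrays lay below the surgery arrays and overlapped the controls. Its difference was -0.63 from surgery (SE 0.18, adjusted p = 0.859) and -0.61 from control (adjusted p = 0.218). Snord33, a guide for the small subunit rRNA in human from another intron of Rpl13a, had 6.47, 7.21 and 5.99 in Maresin 1 plus surgery, 7.57, 7.43 and 6.91 in surgery and 7.20, 7.65 and 7.38 in control. Its groups overlapped, with differences of -0.75 from surgery (SE 0.25, adjusted p = 0.859) and -0.86 from control (SE 0.25, adjusted p = 0.206). Snord33 and Snord35a are known from rodent cells as part of the response to lipid and oxidative stress. Signal shared between the paralogues Snord35a and Snord35b was not tested.

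**Figure D3:**
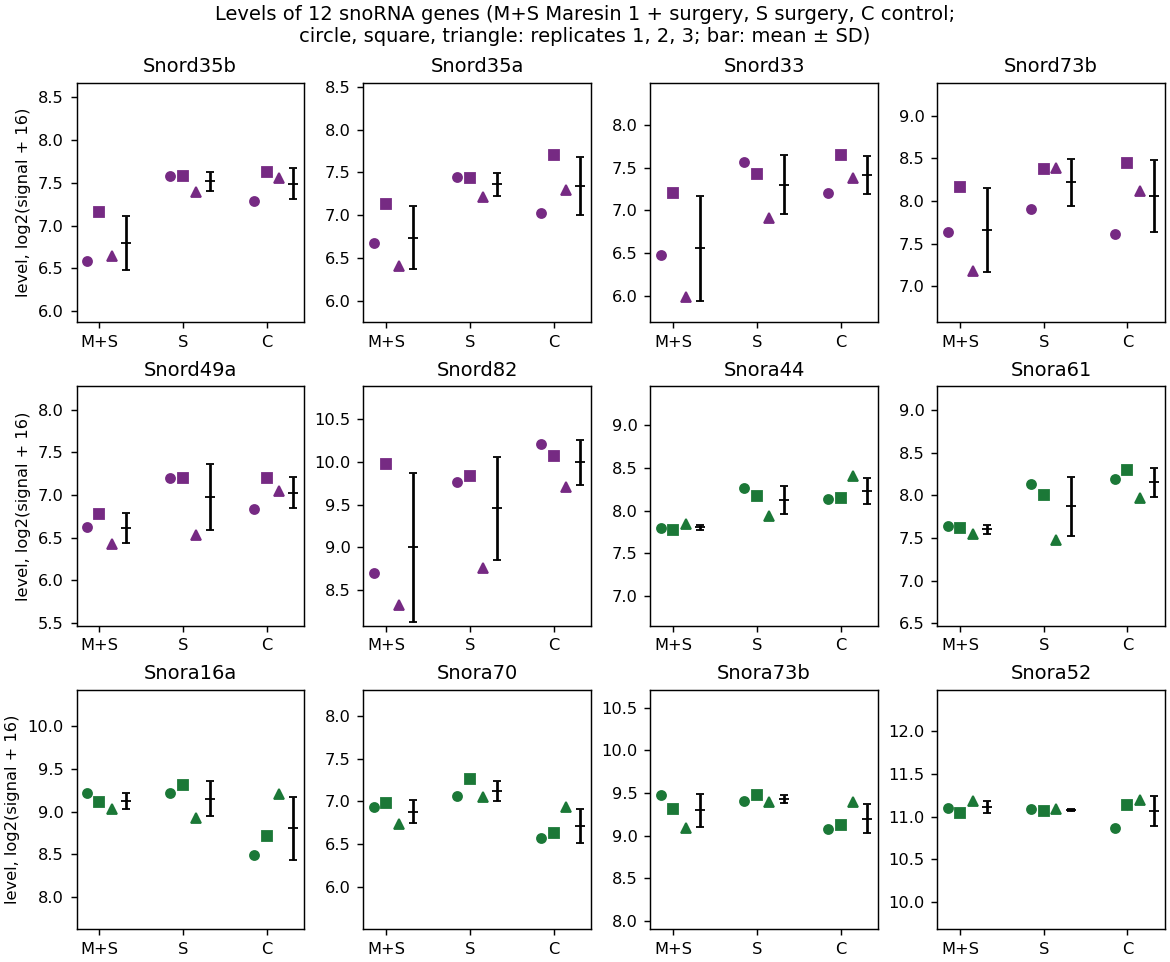
Levels, log2(signal + 16), of 12 snoRNA genes in the 9 arrays by group (M+S Maresin 1 plus surgery, S surgery, C control), C/D genes in purple and H/ACA genes in green, with marker shapes for the replicate and bars for mean ± SD (n = 3); each panel spans the same range. Snord35b shows all 3 Maresin 1 arrays below the rest, while Snora52 stays near 11.1 in every group.

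Snord73b and Snord73a, a pair from the ribosomal protein gene Rps3a1, had differences of opposite sign. Snord73b read 7.64, 8.16 and 7.18 in Maresin 1 plus surgery, 7.91, 8.37 and 8.39 in surgery and 7.61, 8.45 and 8.12 in control, a difference from surgery of -0.56 (SE 0.24, adjusted p = 0.859) with overlapping groups. Snord73a, below background, read 5.01, 5.17 and 4.98 in Maresin 1 plus surgery, 4.87, 4.85 and 4.87 in surgery and 4.92, 4.76 and 4.75 in control. Its Maresin 1 arrays lay above all others, by 0.19 from surgery (adjusted p = 0.859) and by 0.24 from control (adjusted p = 0.292).

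Separation in the upward direction was small. Snord95, from Rack1, had 6.61, 6.71 and 6.88 in Maresin 1 plus surgery and 6.38, 6.32 and 6.54 in surgery, a difference of 0.32 (SE 0.18, adjusted p = 0.859). Snord16a, from Rpl4, had 6.61, 6.75 and 6.61 in Maresin 1 plus surgery and 6.55, 6.40 and 6.38 in surgery, a difference of 0.22 (SE 0.14, adjusted p = 0.878). Their control arrays, 6.14 to 7.11 for Snord95 and 6.26 to 6.89 for Snord16a, covered both groups. Snord96a, the other member in Rack1, had a difference of 0.01 (SE 0.13).

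The other 6 C/D genes lower at an unadjusted p under 0.05 were Snord52, Snord15b, Snord87, Snord118, Snord49a and Snord15a, all with overlapping groups. Snord15a was below background. Snord52, from the lncRNA gene 1110038B12Rik and below background, differed by -0.37 from surgery (SE 0.12), and Snord15b, which lies in Rps3 and in human guides the large subunit rRNA, by -0.40 (SE 0.16). Snord87, a large subunit guide in human, differed by -0.36 (SE 0.14) and Snord118 by -0.27 (SE 0.12). These 4 had an adjusted p of 0.859. Snord118, which in human takes part in maturation of the large subunit rRNA, stood at 5.37, 5.32 and 5.16 in Maresin 1 plus surgery, at 5.68, 5.72 and 5.27 in surgery and at 5.63, 5.56 and 5.46 in control, all below background.

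In the H/ACA class, the separation from surgery came from Snora44 and Snora70. Snora44, a guide for the small subunit rRNA in human, stood at 7.79, 7.78 and 7.84 in Maresin 1 plus surgery, at 8.26, 8.18 and 7.94 in surgery and at 8.13, 8.15 and 8.40 in control. The Maresin 1 arrays were below all 6 others and close together. The difference was -0.32 from surgery (SE 0.10, adjusted p = 0.859) and -0.43 from control (SE 0.10, adjusted p = 0.121). Snora61, a large subunit guide in human from the same host Snhg12, had 7.64, 7.61 and 7.55 in Maresin 1 plus surgery, 8.13, 8.001 and 7.48 in surgery and 8.19, 8.30 and 7.97 in control. Here the Maresin 1 arrays lay below the controls and overlapped surgery, with differences of -0.27 from surgery (adjusted p = 0.859) and -0.55 from control (SE 0.14, adjusted p = 0.166).

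Snora16a, the third measured snoRNA of Snhg12, did not share this pattern. It read 9.22, 9.12 and 9.03 in Maresin 1 plus surgery, 9.22, 9.31 and 8.93 in surgery and 8.49, 8.71 and 9.21 in control. Its difference was -0.03 from surgery (SE 0.15) and 0.32 from control (SE 0.15, adjusted p = 0.442), with overlap in both. Snhg12 itself is not among the measured hosts.

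Maresin 1 plus surgery against control called 16 of 18820 genes (0.085%), and none was a snoRNA. The smallest adjusted p was 0.0892 in the Snord class and 0.121 in the Snora class. At an unadjusted p under 0.05, 9 Snord genes were lower and 1 higher and 3 Snora genes were lower, beside 11.5% of all genes, 5.61% lower and 5.87% higher. The arrays of the groups were fully separated for 4 Snord genes, 3 of them lower, and for 3 Snora genes, all lower, against 14.3% of all genes, 6.71% lower and 7.61% higher. The Snord median was -0.10, with 23 of 30 genes lower, and the Snora median 0.033, with 11 of 26 lower, while the median of all genes was -0.003 with 51% lower. Over the 19 genes of each class above background the medians were -0.31 for Snord and -0.056 for Snora, so the Snora median changed sign. Without Maresin 1 plus surgery replicate 2 the Snord median was -0.22, and without replicate 3 it was -0.061. Without control replicates 2 and 3 the median was -0.14 for Snord and 0.031 for Snora.

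One array, control replicate 1, changed which snoRNA genes passed the test. Leaving it out brought Snord35b to a difference of -0.79 with an adjusted p of 0.0152 and Snora44 to -0.47 with 0.0471, and gave 245 calls over all genes in place of 16. The controls left in that fit were replicates 2 and 3, the arrays set apart by choroid plexus markers. The part of choroid plexus in these calls was not tested. The Snora median was then -0.053, against 0.033 with all arrays, and -0.058 without control replicate 3. Scaling the arrays to one median in place of quantile normalisation gave Snord35b -0.64 with an adjusted p of 0.033. Without control replicates 2 and 3 the differences were -0.50 for Snord35b and -0.33 for Snora44, values that rest on 1 remaining control array.

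Other C/D genes had lower means than control without passing the test, most of them with overlapping arrays. Snord82, a small subunit guide in human from the nucleolin gene Ncl, had the largest difference from control, with 8.70, 9.98 and 8.32 in Maresin 1 plus surgery, 9.76, 9.84 and 8.76 in surgery and 10.21, 10.07 and 9.70 in control. Maresin 1 arrays 1 and 3 and surgery array 3 were low and the rest were high, so the groups overlapped. The difference was -0.998 from control (SE 0.36, adjusted p = 0.287) and -0.46 from surgery (SE 0.36, adjusted p = 0.892).

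Snord57, a small subunit guide in human from the intron of the core protein gene Nop56, had 9.82, 10.27 and 9.77 in Maresin 1 plus surgery, 10.34, 10.29 and 10.04 in surgery and 10.41, 10.80 and 10.08 in control. Its difference from control was -0.48 (SE 0.16, adjusted p = 0.269), with overlap through array 2. Snord104, from the lncRNA gene Gm36220, averaged 9.79 ± 0.25 in Maresin 1 plus surgery and 10.17 ± 0.15 in control (SD, n = 3 each), a difference of -0.38 (SE 0.15, adjusted p = 0.331). Snord49a and Snord49b, large subunit guides in human, share the host 2410006H16Rik. Snord49a had 6.63, 6.77 and 6.42 in Maresin 1 plus surgery, below the 6.84, 7.19 and 7.05 of control, a difference of -0.42 (SE 0.17, adjusted p = 0.351). Snord49b overlapped between the groups, with a difference of -0.31 (SE 0.21, adjusted p = 0.647).

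Snora62, which in human guides the large subunit rRNA and lies in the ribosomal protein gene Rpsa, was the third H/ACA gene whose groups did not overlap. It had 5.87, 6.12 and 5.76 in Maresin 1 plus surgery, 6.42, 6.34 and 5.84 in surgery and 6.50, 6.30 and 6.21 in control, a difference from control of -0.42 (SE 0.15, adjusted p = 0.287). The most brightly measured H/ACA genes, Snora52, Snora7a, Snora3 and Snora73b, had differences from control of 0.04, -0.06, 0.15 and 0.09, all with overlap.

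**Figure D4:**
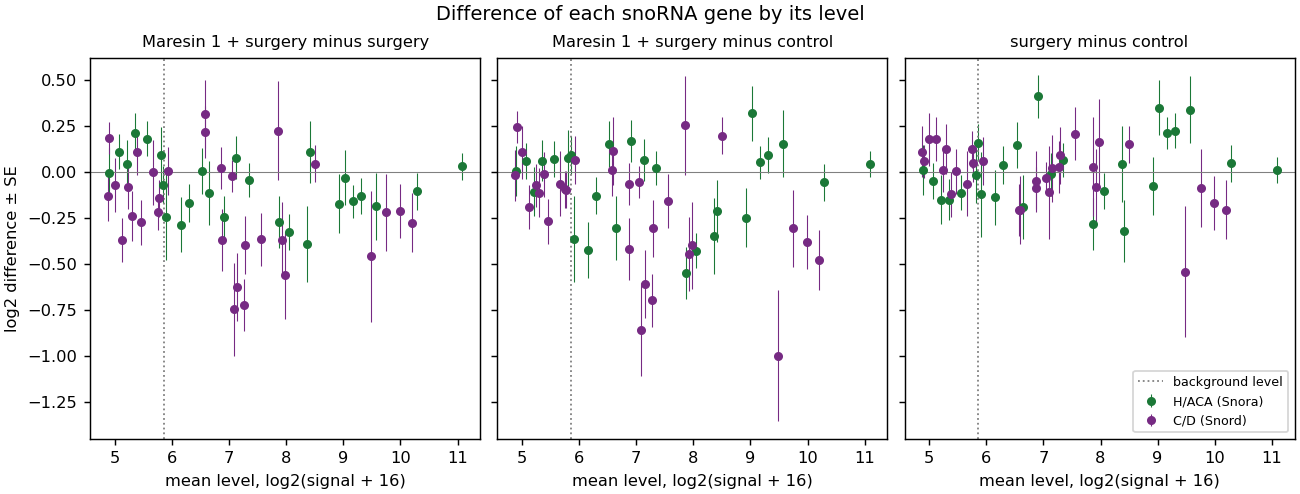
Log2 difference ± SE of each snoRNA gene (y axis) against its mean level (x axis, log2(signal + 16)) in the 3 comparisons, H/ACA in green and C/D in purple, with a dotted line at the background level of 5.86. With Maresin 1 plus surgery minus surgery, C/D genes reach -0.75 (Snord33), while surgery minus control runs from -0.54 (Snord82) to 0.41 (Snora70).

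Between surgery and control the class medians lay close to 0. No snoRNA gene was called, where 0% of all genes were. The Snora median was -6e-04 with 13 of 26 genes lower, and the Snord median 0.015 with 13 of 30 lower, while all genes had a median of 0.020 with 41.6% lower. At an unadjusted p under 0.05, 4 Snora genes were higher and no Snord gene passed, beside 6.21% of all genes, 3.9% higher and 2.31% lower. Full separation of the arrays was seen for 3 Snora and 2 Snord genes, all higher, against 11.5% of all genes, 7.71% higher and 3.82% lower. Leaving out single arrays moved the Snora median between -0.066 and 0.064 and the Snord median between -0.068 and 0.087, so neither has a settled sign. Without control replicates 2 and 3 the median was 0.052 for Snora and 0.053 for Snord.

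Snora70, a small subunit guide in human from the ribosomal protein gene Rpl10, led these genes. It had 6.94, 6.98 and 6.73 in Maresin 1 plus surgery, 7.06, 7.26 and 7.05 in surgery and 6.58, 6.63 and 6.94 in control. The surgery arrays lay above all others. The difference of surgery from control was 0.41 (SE 0.11, adjusted p = 0.63), and that of Maresin 1 plus surgery from surgery was -0.24 (SE 0.11, adjusted p = 0.859). The last 2 comparisons share the surgery arrays, so they are not independent of each other.

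Snora73a and Snora73b, near-identical copies in Snhg3 that take part in ribosomal precursor cutting rather than in guiding a modification, gave similar values. Snora73b had 9.40, 9.48 and 9.39 in surgery and 9.08, 9.13 and 9.39 in control, a difference of 0.23 (SE 0.10, adjusted p = 0.781). Snora73a had 9.27, 9.39 and 9.20 in surgery and 9.01, 9.03 and 9.19 in control, a difference of 0.21 (SE 0.09, adjusted p = 0.78). The separation was narrow, with a lowest surgery array of 9.395 against a highest control array of 9.393 for Snora73b. For Snora73a these were 9.2 and 9.186. With copies this alike, the probe sets may read the same RNA, and the count of separated Snora genes may then hold the same signal again. Snord87 had 7.73, 7.87 and 7.64 in surgery and 7.60, 7.43 and 7.59 in control, a difference of 0.21 (SE 0.14, adjusted p = 0.84). Snord38a, below background, differed by 0.13 (SE 0.13, adjusted p = 0.913).

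Host genes were compared with their snoRNAs, first between Maresin 1 plus surgery and surgery. A measured host existed for 34 members in 29 hosts. For Maresin 1 plus surgery minus surgery, the snoRNAs of these pairs had a median difference of -0.057 and the hosts one of 0.031, with hosts between -0.15 and 0.18. The snoRNA difference was larger in size than that of its host in 26 of 34 pairs, and the signs were the same in 12. Pearson's r across the 34 pairs was -0.28 and Spearman's rho -0.36, across genes that share arrays and, for some pairs, a host. The classes differed, with r of 0.008 and rho of -0.10 over 18 H/ACA pairs. Over 16 C/D pairs r was -0.40 and rho -0.485. For Maresin 1 plus surgery minus control r was 0.20 and rho 0.19, with r of 0.06 for H/ACA and 0.30 for C/D pairs. For surgery minus control r was 0.034 and rho 0.020 over all pairs. There the H/ACA pairs had r of -0.33 and rho of -0.42, and the C/D pairs 0.20 and 0.54. Hosts reached -0.42 against control in Maresin 1 plus surgery and -0.51 in surgery, through Gas5. The SD over the 9 arrays was larger for the snoRNA in 30 of 34 pairs, with a median of 0.204 for snoRNAs and 0.080 for hosts.

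Rpl13a, which encodes a ribosomal protein of the large subunit, differed by 0.09 from surgery (SE 0.10, adjusted p = 0.921) while its Snord33 and Snord35a differed by -0.75 and -0.63. Ncl differed by 0.01 (SE 0.08), Snord82 in it by -0.46 and Snora75 in it by 0.18. Rps3a1 differed by 0.06 (SE 0.05), against -0.56 and 0.19 for Snord73b and Snord73a. Rps3 differed by 0.16 (SE 0.10), against -0.40 and -0.22 for Snord15b and Snord15a. Rpl10 differed by 0.11 (SE 0.04, adjusted p = 0.859) with no overlap, against -0.24 for Snora70 in it. Kansl2 differed by -0.02 (SE 0.07), against 0.21 and 0.006 for Snora2b and Snora34. Members of 1 host thus lay on opposite sides of 0 in Ncl and Rps3a1 and on the same side in Rpl13a, Rps3 and Kansl2. In the hosts with opposite sides, the members above 0, Snora75 in Ncl and Snord73a in Rps3a1, were below background. Snord15a in Rps3 and Snora2b in Kansl2 were below it too. Snord82 had an SE of 0.36, so opposite directions within a host are not settled by these values. Gas5, the noncoding host of Snord47, read 8.66, 9.57 and 8.96 in Maresin 1 plus surgery, 9.20, 9.11 and 8.59 in surgery and 9.38, 9.90 and 9.17 in control, a difference from surgery of 0.09 (SE 0.23) against -0.37 (SE 0.20) for Snord47.

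**Figure D5:**
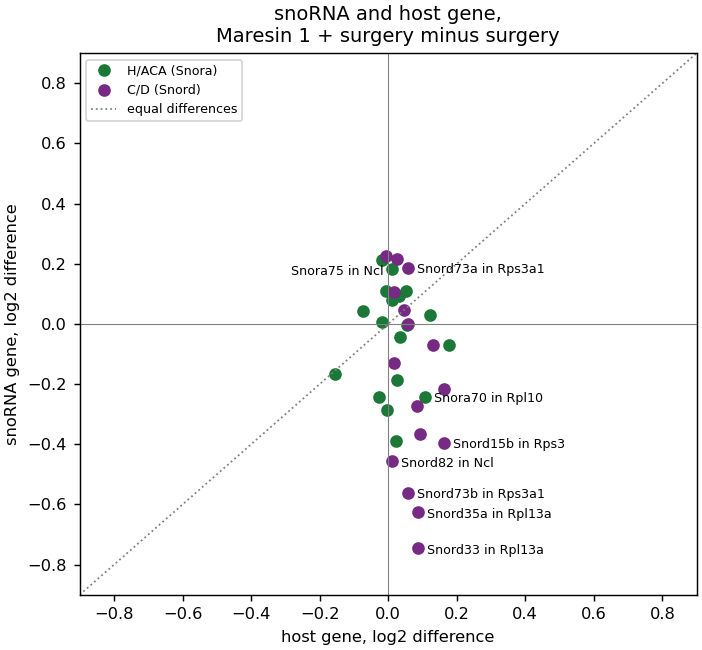
Log2 difference of Maresin 1 plus surgery minus surgery for 34 snoRNA genes (y axis) against that of their measured host genes (x axis), H/ACA in green and C/D in purple; the dotted line marks equal differences. Hosts keep between -0.15 and 0.18 while snoRNAs spread from -0.75 to 0.22.

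Genes of the snoRNA machinery showed no called difference in any comparison. The 4 measured C/D core protein genes differed between Maresin 1 plus surgery and surgery by 0.07 (Fbl, SE 0.11), 0.08 (Nop56, SE 0.05), -7e-04 (Nop58, SE 0.12) and 0.11 (Snu13, SE 0.06). The 4 H/ACA core genes differed by 0.07 (Dkc1, SE 0.08), -0.01 (Gar1, SE 0.09), 0.10 (Nhp2, SE 0.11) and 0.04 (Nop10, SE 0.08). Dkc1 had 8.46, 8.597 and 8.61 in Maresin 1 plus surgery, above the 8.42, 8.22 and 8.45 of control, a difference of 0.19 (SE 0.08, adjusted p = 0.351).

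None of 13 assembly factors, 21 processing and decay factors and 46 ribosome biogenesis factors was called in any comparison. Median differences of Maresin 1 plus surgery from surgery were -0.007, 0.047 and -0.014 in these lists, against -0.019 over all genes. Xrn2, an exonuclease that trims snoRNA ends, differed by 0.14 from surgery (SE 0.07, adjusted p = 0.859) with no overlap, and Nufip1, an assembly factor of C/D particles, by 0.10 (SE 0.07, adjusted p = 0.886). Nop16, a nucleolar factor of ribosome assembly, differed from control by 0.23 in Maresin 1 plus surgery (SE 0.06, adjusted p = 0.178) and by 0.17 in surgery (SE 0.06, adjusted p = 0.741), both without overlap. The 10 measured genes of a host list were all noncoding except Taf1d, and among them only Gas5 holds any of the snoRNA members. Their medians were 0.12 for Maresin 1 plus surgery minus surgery, -0.049 for Maresin 1 plus surgery minus control and -0.16 for surgery minus control. The last was led by Gas5 with -0.51 (SE 0.23, adjusted p = 0.781).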

How the data were processed

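The authors deposited one signal per probe set and array, which per the submitters' processing notes came from Affymetrix Expression Console. The deposited unit is intensity on a linear scale. Its version and algorithm, and a genome build, are not given in the sources used. The 35556 probe sets of 9 arrays were quantile normalised, 16 was added and log2 was taken. Probe sets with 1 gene (21218) gave 18820 genes through the probe set of highest mean. Contrasts between groups came from limma 3.58.1 (R 4.3.3), in 1 group-means model over all arrays with a mean-variance trend. Calls are genes with p under 0.05 after Benjamini-Hochberg adjustment across the whole table. Errors are the model's SE, or the SD of 3 arrays, and the number of arrays limits the precision. Because 16 is added, a fold understates the change of a dim gene.

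Members and gene lists were chosen with earlier results of these data known, so classes and lists are described by counts and medians and carry no p. A splicing list named in the plan was not run. Named snoRNA genes are, per comparison and class, up to 6 without overlap and with the largest difference, the 4 brightest, the 3 most and the 3 least variable above background, all core protein genes and measured hosts of named genes. From each other list up to 4 genes with the smallest p were eligible. Snora16a, Snora2b, Snora34, Snora75, Snord15a, Snord15b, Snord47, Snord52 and Snord96a were named after their values were seen. A host is the smallest gene that contains the snoRNA in the RefSeq table of GRCm38.p6.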

Additional observations from a re-analysis of the deposited data

How the results depend on the processing

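The Snora minus Snord difference moved by less than 0.13, the pooled SD between arrays, in each of 53 values recomputed over the 3 comparisons. That limit is about as large as the differences of 0.11 and 0.14 and exceeds the 0.026 of surgery minus control. Without control replicate 2 the 0.026 became -0.025, while the Maresin 1 differences kept their sign over single left-out arrays. snoRNA genes named for groups without overlap kept direction and side of the threshold in 328 of 331 values, the other 3 passing it. They were picked for that separation, so leaving out 1 array could hardly reverse them. Other named genes were not among these values. Genes called between surgery and control numbered 0 as reported, 42 without normalization between arrays, 37 with arrays scaled to one median and 0 to 167 when single arrays were left out, with 167 without control replicate 1. Between Maresin 1 plus surgery and control the 16 calls became 43 without normalization, 38 with scaling to one median, 4 without control replicates 2 and 3 (chosen after seeing the data), and 0 to 245 over the left-out arrays. They became 0 with a prior without trend, with only the 2 groups compared and with the replicate number as a block. snoRNA calls in that comparison were 1 with scaling to one median (Snord35b) and 0 to 2 over the left-out arrays. With genes above background only, the medians against control came to -0.056 for Snora and -0.31 for Snord, and the Snora median ran from -0.058 to 0.044 over the left-out arrays. The cause of these shifts was not tested. Scaling to one median moved the median of all genes to 0.10 for surgery minus control and -0.089 for Maresin 1 plus surgery minus surgery. Same-numbered arrays did not deviate together (r from -0.24 to 0.055), and the block changed no snoRNA call. The labels state no pairing by number, and these correlations cannot exclude one. With 3 arrays a group, and 18 of 56 snoRNA genes not above background, small differences could not be resolved.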

Other observations

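Of the 13 probe sets left out by the rule because they name several genes, 8 were higher and 5 lower in Maresin 1 plus surgery than in surgery. The higher ones included both that name Snord14c and Snord14d (0.18 and 0.19), one that names Snord14a (0.18) and one that names Snora43 (0.15). Both that name Snord1b and Snord1c were higher by only 0.012 and held identical signals on every array. The pair for Snord14c and Snord14d read nearly alike, so the 8 are not 8 separate measurements. The largest lower ones are set out next. A probe set that names Snord32a and Rpl13a had levels of 8.82, 9.70 and 8.64 in Maresin 1 plus surgery, 9.54, 9.55 and 8.91 in surgery and 9.44, 9.90 and 9.48 in control. Array 2 of Maresin 1 plus surgery was the high one here too, and the differences were -0.28 from surgery and -0.55 from control with overlap. One that names Snord34 and Rpl13a differed by -0.26 from surgery and -0.48 from control. For Snord68 and Rpl13 the difference from surgery was -0.35, the largest of these, with overlap. Its difference from control was -0.47, with 7.72, 8.04 and 7.54 in Maresin 1 plus surgery and 8.22, 8.24 and 8.24 in control, which did not overlap. For Snora24 and its host Snhg8 the difference from surgery was -0.33, with 6.23, 6.17 and 6.18 in Maresin 1 plus surgery and 6.56, 6.53 and 6.47 in surgery. These values received no test.

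Guides of spliceosomal RNA that reside in Cajal bodies (scaRNAs) differed in direction among themselves. Scarna13 was higher in Maresin 1 plus surgery by 0.37 than in surgery (SE 0.11, adjusted p = 0.859) and by 0.42 than in control (adjusted p = 0.166), without overlap in either. Scarna17 differed from control by -0.55 in Maresin 1 plus surgery (SE 0.16, adjusted p = 0.195), also without overlap. Rnu5g, a spliceosomal RNA gene with a mean below background, differed by 0.55 between surgery and control (SE 0.17, adjusted p = 0.64), again without overlap.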
